A study of Homo sapiens with 6 samples.

Results

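The genes described here are the WNT ligands, their frizzled, LRP and ROR receptors, the R-spondins and LGR receptors, the secreted antagonists of the SFRP and DKK families, the intracellular regulators AXIN1, AXIN2, NKD1 and NKD2, and the 4 TCF/LEF transcription factors. They were taken by symbol, a rule that uses no measured value, though the set was proposed with earlier results of these data known. They number 57 of the 58395 genes counted. Expression was measured by RNA sequencing in H1, a human embryonic stem cell line. Of 6 libraries, 2 were from unedited cells (WT) and 4 from cells labelled BRPF1 knockout, 2 named KO 1# and 2 named KO 2#. BRPF1 is a scaffold protein of histone acetyltransferase complexes. No treatment or time point is labelled, and the labels give neither the edited part of BRPF1, nor whether 1# and 2# are clones, nor whether replicates came from separate cultures. P-values here cover the spread between libraries, which may be technical.

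WNT proteins are lipid-modified signals that bind frizzled receptors. With the co-receptors LRP5 or LRP6 they stop the AXIN scaffold from marking beta-catenin for destruction, and beta-catenin then turns TCF/LEF factors from repressors into activators. Ligands such as WNT5A mostly act without beta-catenin, through ROR1 and ROR2 and the planar polarity proteins. R-spondins raise receptor levels through LGR receptors, SFRP proteins bind WNTs outside the cell, and DKK1 and DKK2 block LRP5 and LRP6. In human embryonic stem cells WNT signals can support self-renewal or start mesoderm formation, depending on strength and time, and TCF7L1 is known as a repressor in pluripotent cells.

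The cell type label was checked against marker genes. Of 12 markers of undifferentiated embryonic stem cells, 12 were lower in the knockout libraries. Their summed level was 6673.5 to 6844.7 normalised CPM (a count scaled by library size and composition) in WT and 29.1 to 50.8 in the knockout libraries, where PRDM14 and GDF3 had 0 counts. Of 14 fibroblast and stroma markers, 13 were higher and 1, TWIST2, was lower. Their summed level went from 587 to 613 normalised CPM in WT, where LUM and FAP had 0 counts, to between 126675.6 and 139546.9 in the knockout libraries, so the label of stem cells holds for WT but not for the marker profile of the knockout libraries. The 5 smooth muscle markers, 4 of them higher and 1 lower, summed to 65.7 to 67.1 in WT and 923.5 to 1088.5 in the knockout libraries. The epithelial markers, 5 of 5 lower, summed to 980 to 998 and 292 to 332. Sums for 4 blood markers stayed at or below 0.942 in every library. The 5 neural markers summed to at most 3.84, and the 4 primitive streak and 4 trophoblast markers to at most 3.33 and 1.79. Of 5 endothelial markers 3 were lower, 1 was not called and 1, PECAM1, was higher (0.143 to 11.5 normalised CPM on average). PECAM1 had 3 and 11 counts in WT and passed the filter on low counts only through the knockout libraries, so its test is not read as support. The sum of the 5, mostly KDR in WT, was 133 to 136 in WT and 16.01 to 33.03 in the knockout libraries. The stem cell and stroma sums separate WT from knockout libraries, as the WNT gene changes against WT do, and their part in those changes was not tested. In such bulk samples fewer cells of a type and less RNA per cell cannot be told apart. BRPF1 itself had 28.4 and 23.1 in WT, 32.2 and 27.9 in KO 1#, with 25.4 and 23.6 in KO 2# (0.08, SE 0.10, adjusted p = 0.508), and gene counts do not show an edit. Libraries held 33421785 to 38098779 counts.

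Of the 57 genes, 43 passed the filter on low counts and were tested, and 14 did not pass it. DKK1, DKK2, WNT7B and LEF1 passed it only through the knockout libraries. WNT4, WNT8B, RSPO4, LGR5 and NKD2 passed it only through WT. Tests of these genes are not read as support beyond their counts. Between the mean of both knockout sets and WT, 19 of the 43 were higher and 19 lower at an adjusted p below 0.05, and 5 passed in neither direction. At a change of at least 2-fold 17 were higher and 15 lower, against 23.3% and 28.7% of all tested genes. The median log2 fold change was 0.26. The background was high, since 77.3% of all 19660 tested genes were called (35.8% higher and 41.4% lower, median log2 fold change -0.13). Neither the share of called WNT genes nor the counts by role given below are therefore read as a property of the family. In KO 1# against WT 20 were higher and 18 lower (background 73.6%), and in KO 2# against WT 17 and 17 (background 73.7%). These comparisons share the WT libraries. Called in the same direction in both were 17 higher and 16 lower genes (background 32.6% and 35.7%), 6 passed in 1 set only, 4 in neither, and 0 were called in opposite directions. The knockout and WT libraries did not overlap for 39 of the 43 genes, 19 above and 20 below, against 80.4% of all tested genes (37.2% above and 43.3% below). Most families had members moving each way. SFRP1 and SFRP2 fell and DKK1 and DKK3 rose, FZD5 and FZD3 fell and FZD1, FZD2 and FZD8 rose, TCF7L1 and TCF7 fell and LEF1 rose, and WNT5A, WNT5B and WNT7B rose from low levels.

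**Figure D1:**
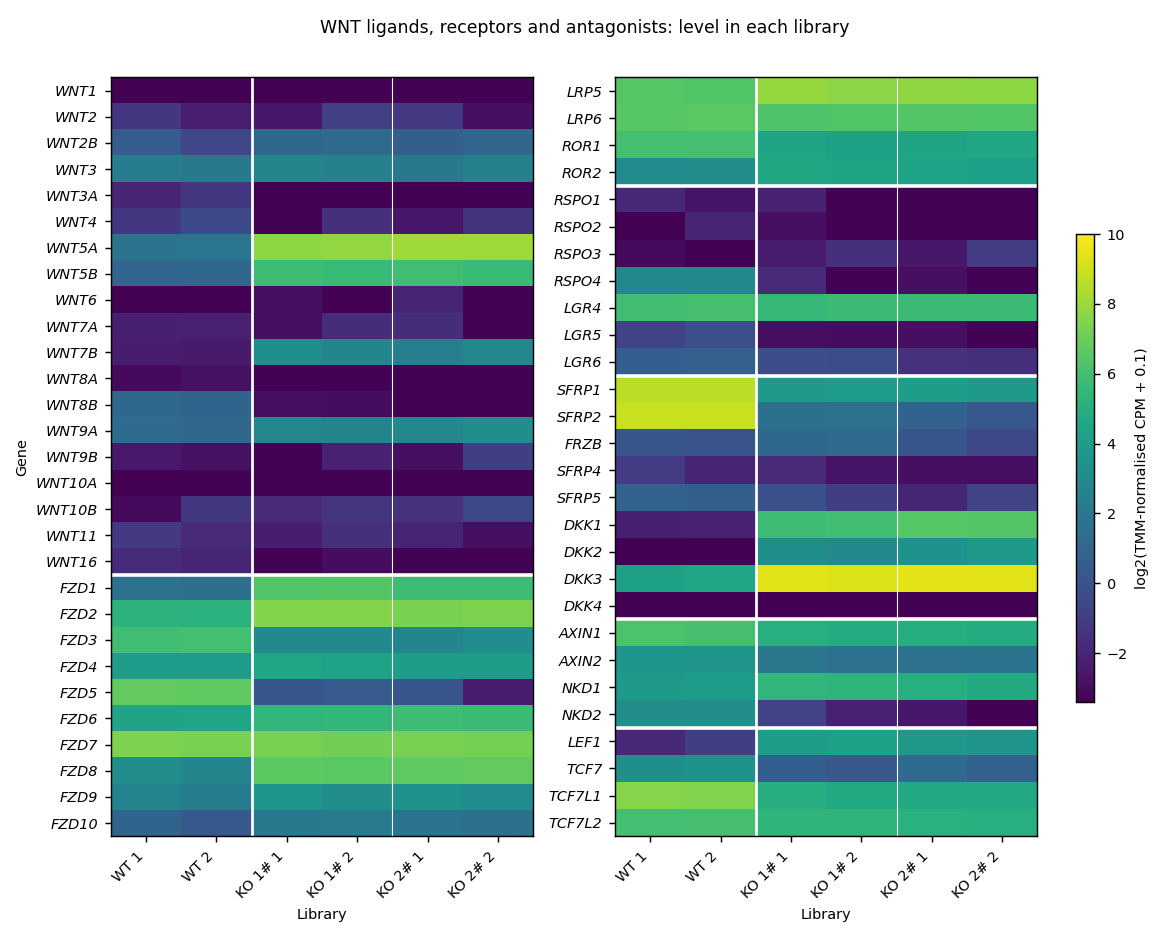
Level of all 57 genes (rows, grouped by role and split by white lines) in each of the 6 libraries (columns), as log2 of TMM-normalised CPM plus 0.1. SFRP1 and SFRP2 are bright in the 2 WT libraries and DKK3, WNT5A and FZD2 in the 4 knockout libraries, and the libraries of a group look alike.

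Promoter sequences are shown for 5 genes that stand for these exchanges, as the 120 bases just before the RefSeq start (build GRCh38.p14, 5′ to 3′ on the strand of the gene). RefSeq promoter windows, 250 bases before to 50 after the start, were found for 40 of the 57 genes. No window was found for WNT7B, WNT10B, WNT11, FZD2, FZD3, FZD6, FZD7, FZD10, LRP6, SFRP1, DKK2, DKK3, DKK4, RSPO2, LGR5, AXIN2 and NKD1. The windows were searched on both strands for spellings of the core that TCF/LEF factors bind, namely CTTTGAA, the variant CTTTGAT, the variant CTTTGTA and the variant CTTTGTT. The last of these, read on the other strand, also contains the core bound by SOX factors. A match was present in 2 of the 40 windows (5.0%), against 13.8% of 35116 promoter windows in the table. The match in WNT3 lies after the start and is not shown. DKK1, which rose, had both of its matches before the start, at 95 and 76 bases, in capitals here (chr10:52314161-52314280, plus strand).
DKK1: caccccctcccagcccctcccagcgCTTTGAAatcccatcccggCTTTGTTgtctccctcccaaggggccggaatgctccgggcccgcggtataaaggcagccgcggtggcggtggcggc
In the next 4 stretches the capitals mark CpG dinucleotides, where human promoters can be methylated. WNT5A (chr3:55487307-55487426, minus strand) and LEF1 (chr4:108166302-108166421, minus strand) rose, and SFRP2 (chr4:153789084-153789203, minus strand) and FZD5 (chr2:207769907-207770026, minus strand) fell.
WNT5A: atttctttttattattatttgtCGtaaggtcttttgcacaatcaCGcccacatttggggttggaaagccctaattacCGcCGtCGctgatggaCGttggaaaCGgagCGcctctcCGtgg
LEF1: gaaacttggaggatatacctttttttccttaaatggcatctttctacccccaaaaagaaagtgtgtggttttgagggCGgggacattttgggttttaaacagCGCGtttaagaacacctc
SFRP2: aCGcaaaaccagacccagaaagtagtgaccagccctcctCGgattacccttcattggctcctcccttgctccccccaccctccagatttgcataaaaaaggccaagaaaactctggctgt
FZD5: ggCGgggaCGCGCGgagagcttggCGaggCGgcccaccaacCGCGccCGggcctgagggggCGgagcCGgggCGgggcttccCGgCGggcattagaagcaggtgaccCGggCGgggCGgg
RefSeq and GENCODE place some of these starts differently: those of WNT5A, LEF1 and SFRP2 lie inside the GENCODE genes given with their values, and that of FZD5 lies outside, before the GENCODE start. The stretches hold 9 CpGs in WNT5A, 3 in LEF1, 2 in SFRP2 and 17 in FZD5. These 4 genes have no TCF/LEF core match in their windows and were picked by hand as examples. No comparison between directions is drawn from them. Over the 300-base windows the median was 28.0 CpGs for 12 genes that were higher and 28.0 for 13 that were lower, against 14 for all windows in the table. No methylation or binding was measured in these libraries.

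Ligands were low in WT and were mostly WNT5A and WNT5B in the knockout libraries. Of 19 ligand genes 10 were tested, 5 of which were higher, 1 lower and 4 not called, where 35.8% of all tested genes were higher and 41.4% lower. WNT5A, the main ligand of the beta-catenin-independent branch (ENSG00000114251, chromosome 3, 55465715 to 55490539, minus strand), had 3.288 and 3.499 normalised CPM in WT, 208 and 225 in KO 1#, with 271 and 273 in KO 2#. Every knockout library was above both WT libraries, and those of KO 2# were above those of KO 1#. On the log2 scale this was a rise of 6.16 (SE 0.09, adjusted p = 8.91e-20). An antisense gene, WNT5A-AS1, overlaps it with 0 shared exon bases and held 1165 counts over all libraries against 29866 for WNT5A. Its close relative WNT5B (ENSG00000111186, chromosome 12, 1529891 to 1647243) had 1.87 and 1.98 in WT, 57.4 and 49.7 in KO 1#, with 59.7 and 51.8 in KO 2#. The sets were alike for WNT5B, with a rise of 4.82 on the log2 scale (SE 0.13, adjusted p = 3.27e-16).

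WNT7B, a ligand that can signal through beta-catenin, had 0.0956 and 0.0833 normalised CPM in WT, 9.52 and 6.61 in KO 1#, with 5.14 and 6.88 in KO 2#. Its fitted log2 fold change was 6.23, but the WT level rests on 5 and 4 counts, and it passed the count filter only through the knockout libraries. WNT9A had 2.35 and 1.94 in WT, 6.94 and 6.09 in KO 1#, with 6.96 and 8.90 in KO 2# (log2 fold change 1.74, SE 0.21, adjusted p = 4.75e-07). WNT8B, a ligand of the early nervous system, was the only ligand called lower. It had 111 and 86 counts in WT, 1 and 1 in KO 1#, with 0 and 0 in KO 2#, with a WT to knockout ratio of 119 (95% exact interval 32.6 to 993, counting error only). WNT2B was called in KO 1# only. It had 1.3 and 0.583 in WT, 2.1 and 2.27 in KO 1#, with 1.449 and 1.92 in KO 2#, a mean change of 1.02 (adjusted p = 0.0227) that was 0.56 (adjusted p = 0.311) when WT replicate 2 was left out and 1.71 (adjusted p = 0.0087) when WT replicate 1 was. It overlaps ST7L on the opposite strand over 2661 exon bases, and reads of the pair cannot be told apart because the strand setting is not known. Over the alternatives tried its adjusted p ran from 0.0087 to 0.485.

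WNT3, a canonical ligand with 4.61 and 3.96 normalised CPM in WT and 4.02 to 6.46 in the knockout libraries, was not called (0.30, adjusted p = 0.171). WNT4 was at most 0.646 in any library and not called (-1.71, adjusted p = 0.0734, and between 0.00426 and 0.496 over the alternatives). It passed when KO 1# replicate 2 (-4.33, adjusted p = 0.00426) or KO 2# replicate 2 (-2.31, adjusted p = 0.0466) was left out. WNT2 and WNT10B reached at most 0.607 in any library and were not called. The 9 ligands left out by the count filter were WNT1, WNT3A, WNT6, WNT7A, WNT8A, WNT9B, WNT10A, WNT11 and WNT16. None of them exceeded 19 counts in a library, and WNT1 and WNT10A had 0 counts in every library. WNT3A, the ligand most used to drive beta-catenin signalling in culture, had 8 and 16 counts in WT and 0 in the knockout libraries, at least 2.45-fold lower. Some WNT genes are neighbours. WNT9A, which rose, lies 59.2 kb from WNT3A. The other pairs were WNT10B and WNT1, WNT3 and WNT9B, and WNT6 and WNT10A. Of these genes only WNT10B and WNT3 were tested, and neither was called.

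Frizzled receptors moved in both directions. The 10 genes were all tested, with 7 higher and 3 lower, where 35.8% and 41.4% of all tested genes were. The calls of FZD4, FZD9 and FZD10 among the higher and FZD7 among the lower depended on the scaling or on single libraries. FZD5 (ENSG00000163251, chromosome 2, 207762586 to 207769563, minus strand) had 112 and 105 normalised CPM in WT, 1.05 and 1.27 in KO 1#, with 1.05 and 0.101 in KO 2#. It was lower in 4 of 4 knockout libraries (-7.06 on the log2 scale, SE 0.18, adjusted p = 2.29e-16). FZD3, a receptor of axon guidance and planar polarity, had 58.3 and 63.4 in WT, 8.05 and 7.88 in KO 1#, with 6.45 and 8.77 in KO 2# (-2.96, SE 0.10, adjusted p = 1.72e-14).

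FZD1 had 3.02 and 2.81 normalised CPM in WT, 83.3 and 85.7 in KO 1#, with 54.3 and 55.2 in KO 2# (log2 fold change 4.54, SE 0.10, adjusted p = 2.42e-17). FZD8 had 9.062 and 6.499 in WT, 98.3 and 93.3 in KO 1#, with 105 and 111 in KO 2# (3.71, SE 0.11). FZD2 (ENSG00000180340, chromosome 17, 44557459 to 44559570) had 36.4 and 36.1 in WT, 182 and 180.2 in KO 1#, with 159 and 171 in KO 2# (2.25, SE 0.07). These 3 were high in every knockout library, with no overlap with WT. FZD6 rose from 21.03 and 22.4 in WT to 42.1 and 44.9 in KO 1#, with 56.99 and 52.9 in KO 2# (1.17, SE 0.08), and the difference between the sets is given with the direct comparison of the sets. FZD10 had 1.78 and 1.12 in WT, 3.98 and 4.03 in KO 1#, with 3.15 and 2.80 in KO 2# (1.24, SE 0.28). FZD9 had 6.23 and 4.83 in WT, 12.2 and 9.12 in KO 1#, with 10.6 and 8.53 in KO 2# (0.86, SE 0.17). Both were above WT in every knockout library, but scaled by library totals neither passed the threshold (0.51 for FZD10, adjusted p = 0.0942, and 0.13 for FZD9, adjusted p = 0.48).

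FZD7, a receptor abundant in human embryonic stem cells, kept most of its level. It had 173 and 156 normalised CPM in WT, 150.1 and 139 in KO 1#, with 153 and 146 in KO 2#. Its change of -0.16 (SE 0.06, adjusted p = 0.0265) is close to the median of all tested genes, -0.13, and was not called when WT replicate 1 (-0.09, adjusted p = 0.36), KO 2# replicate 1 (-0.17, adjusted p = 0.0506) or KO 2# replicate 2 (-0.14, adjusted p = 0.116) was left out. FZD4, which shares 1399 exon bases with the far more counted PRSS23 on the opposite strand, had 16.1 and 15.7 in WT and 17.1 to 21.9 in the knockout libraries. Its change of 0.26 (adjusted p = 0.0274) became -0.47 (adjusted p = 0.000337) when scaled by library totals and was not called without either WT replicate (adjusted p = 0.0917 and 0.146) or either KO 2# replicate (0.0524 and 0.0516), so no direction is given for it.

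Per transcript length, as RPKM (normalised CPM divided by exon length), the frizzled genes summed to 93.0 ± 4.55 in WT (SD, n = 2) and 176 ± 4.48 in the knockout libraries (SD, n = 4). In WT FZD7 made up 45.8% ± 1.14 of this sum, FZD2 18.5% ± 0.811 and FZD5 17.4% ± 0.0553. In the knockout libraries FZD2 made up 46.5% ± 1.84, FZD7 21.6% ± 1.11, FZD8 14.4% ± 1.32 and FZD5 0.0734% ± 0.0441. The order of the most expressed receptors therefore went from FZD7, FZD2 and FZD5 to FZD2, FZD7 and FZD8. The ligands summed to 3.98 ± 0.213 RPKM in WT and 50.7 ± 4.49 in the knockout libraries. WNT3 and WNT8B made up 24.8% ± 1.34 and 23.2% ± 1.54 of the ligand sum in WT, a difference within their spread, and WNT5A and WNT5B 65.0% ± 3.56 and 25.2% ± 2.61 in the knockout libraries. RPKM shares rest on GENCODE exon lengths and were not tested.

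**Figure D2:**
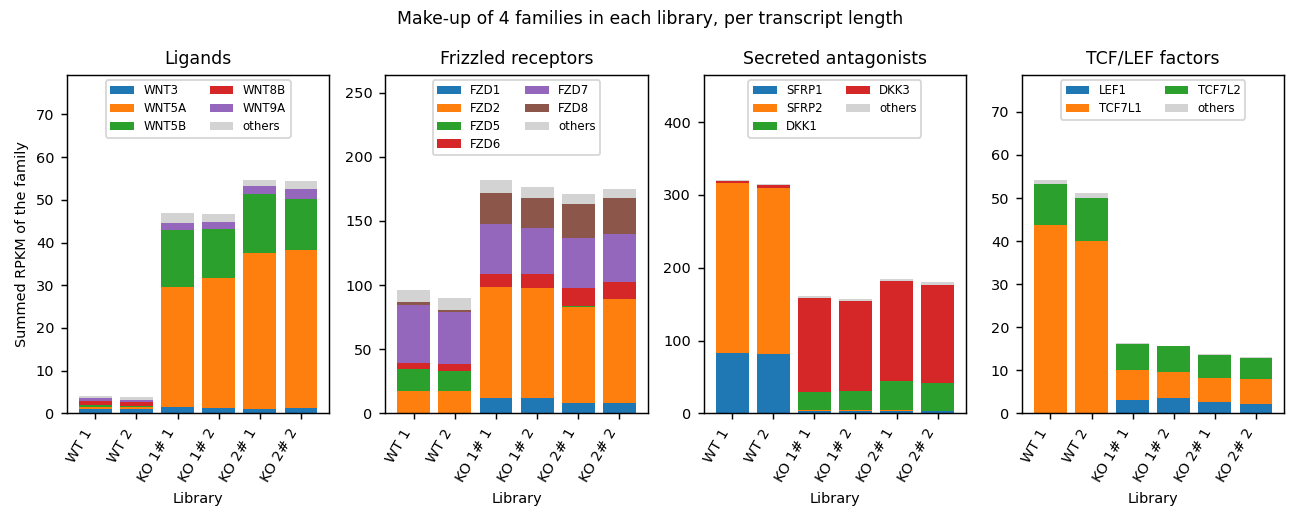
Summed RPKM of 4 families in each library (bars stacked by gene; genes under 5% of the sum in both conditions are pooled as others). Ligand and frizzled sums are higher in the knockout libraries and antagonist and TCF/LEF sums lower, and the colours show the exchange of SFRP1 and SFRP2 for DKK3 and DKK1.

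Among co-receptors LRP5 rose and LRP6 changed little. LRP5 (ENSG00000162337, chromosome 11, 68312609 to 68449275) had 88.3 and 83.4 normalised CPM in WT, 235 and 205 in KO 1#, with 222 and 208 in KO 2# (log2 fold change 1.34, SE 0.07, adjusted p = 4.78e-12). LRP6 had 92.2 and 94.3 in WT and 79.8 to 85.8 in the knockout libraries. Its change of -0.19 (SE 0.06, adjusted p = 0.0126) was again near the median of all genes, and was not called when WT replicate 2 (-0.17, adjusted p = 0.0853) or KO 2# replicate 2 (-0.16, adjusted p = 0.0828) was left out. Over all alternatives its adjusted p lay between 7.55e-11 and 0.0853.

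The receptor tyrosine kinases ROR1 and ROR2, which bind WNT5A, moved in opposite directions. ROR1 had 63.4 and 65.6 normalised CPM in WT, 21.1 and 19.5 in KO 1#, with 21.3 and 24.1 in KO 2# (-1.59, SE 0.08, adjusted p = 3.54e-12). ROR2 had 8.51 and 9.39 in WT, 23.8 and 21.8 in KO 1#, with 19.8 and 18.0 in KO 2# (1.21, SE 0.12, adjusted p = 2.86e-08). For both genes the groups did not overlap. Per length ROR1 stood at 9.61 ± 0.223 RPKM and ROR2 at 1.54 ± 0.108 in WT, and at 3.20 ± 0.286 and 3.58 ± 0.430 in the knockout libraries, where their levels overlap in spread.

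Of the 7 R-spondin and LGR genes 4 were tested, and 4 were lower, where 41.4% of all tested genes were. RSPO4, a secreted enhancer of WNT signalling, had 354 and 341 counts in WT, 6 and 0 in KO 1#, with 1 and 0 in KO 2#, a mean of 6.94 normalised CPM in WT against 0.0568 in the knockout libraries (adjusted p = 1.29e-10). It was the only R-spondin to pass the count filter, which it did only through the WT libraries. RSPO1, RSPO2 and RSPO3 held at most 11 counts in any library. RSPO3 lay the other way, with 1 and 0 counts in WT, 3 and 8 in KO 1#, with 2 and 11 in KO 2#, a knockout to WT ratio of 19.8 (95% exact interval, 3.23 to 814). LGR5, the R-spondin receptor known from intestinal stem cells, had 28 and 39 counts in WT and 3 over the knockout libraries, a ratio of 27.1 in favour of WT (95% exact interval 8.88 to 135). LGR6 had 1.40 and 1.56 normalised CPM in WT, 0.764 and 0.727 in KO 1#, with 0.254 and 0.236 in KO 2#, and was called in KO 2# (-2.58, adjusted p = 0.000446) but not in KO 1# (-0.98, adjusted p = 0.0732). The difference between the sets did not pass the test (-1.59, adjusted p = 0.164). LGR4, the broadly expressed receptor, had 58.6 and 66.0 in WT, 46.2 and 52.7 in KO 1#, with 53.8 and 53.7 in KO 2#. Its fall of -0.27 (SE 0.08, adjusted p = 0.00396) was not called when WT replicate 2 was left out (-0.19, adjusted p = 0.101) with an adjusted p as low as 5.13e-10 by library totals. Per length, LGR4 made up 97.5% ± 1.32 of the RPKM sum of these 7 genes in the knockout libraries and 76.2% ± 0.672 in WT.

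Secreted antagonists showed the largest exchange. SFRP2 and SFRP1 held 72.4% ± 0.146 and 25.9% ± 0.0358 of the antagonist RPKM in WT. In the knockout libraries DKK3 held 76.8% ± 2.69 and DKK1 18.8% ± 3.16. The sum itself was 318 ± 4.37 RPKM (SD, n = 2) for WT against 171 ± 13.3 (SD, n = 4) for the knockout libraries, and every knockout library was below both WT libraries. DKK3, which is not a general LRP blocker, accounted for 131 ± 6.07 RPKM of the knockout sum and 4.14 ± 0.655 of the WT sum. The sums therefore do not measure how strongly WNT signals are blocked.

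SFRP2, a secreted frizzled-related protein (ENSG00000145423, chromosome 4, 153780592 to 153789120, minus strand), had 473 and 462 normalised CPM in WT, 2.83 and 3.06 in KO 1#, with 1.63 and 1.08 in KO 2#. On the log2 scale the change was -7.87 (SE 0.08, adjusted p = 1.85e-21). SFRP1 (ENSG00000104332, chromosome 8, 41261958 to 41309497, minus strand) had 396 and 387 in WT, 13.97 and 16.2 in KO 1#, with 16.8 and 14.4 in KO 2# (-4.67, SE 0.07, adjusted p = 1.52e-19). Both were lower in 4 of 4 knockout libraries, with WT libraries close to each other. SFRP5 was low throughout, with 1.70 and 1.48 in WT, 0.828 and 0.424 in KO 1#, with 0.145 and 0.540 in KO 2# (-1.77, SE 0.47, adjusted p = 0.00237). FRZB, also called SFRP3, was called in KO 1# only, at 1.1 (adjusted p = 0.0252), against -0.28 (adjusted p = 0.58) in KO 2#, and the difference between the sets did not pass (-1.38, adjusted p = 0.104). It had 1.05 and 0.958 in WT, 2.04 and 2.27 in KO 1#, with 1.05 and 0.607 in KO 2#, so KO 2# overlaps WT and KO 1# lies above both.

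DKK1, the LRP5 and LRP6 blocker (ENSG00000107984, chromosome 10, 52314296 to 52318042), had 0.115 and 0.125 normalised CPM in WT, 55.2 and 58.2 in KO 1#, with 88.2 and 84.9 in KO 2#. On the log2 scale it rose by 9.15 (SE 0.16, adjusted p = 1.04e-18), against a WT level of 6 and 6 counts. DKK1 passed the count filter only through the knockout libraries. DKK2, the related LRP ligand, had 0 counts in both WT libraries and 9.61 and 7.73 normalised CPM in KO 1#, with 10.8 and 13.6 in KO 2#. It was at least 174-fold higher, against a floor of 3 counts in each WT library, and it passed the count filter only through the knockout libraries. DKK3, a divergent member of the family that is not a general LRP blocker (ENSG00000050165, chromosome 11, 11963106 to 12009769, minus strand), had 18.6 and 23.3 in WT, 651 and 625 in KO 1#, with 693 and 680.1 in KO 2# (4.98, SE 0.09, adjusted p = 1.04e-18). All 3 were higher in 4 of 4 knockout libraries. DKK4 had 0 counts in every library, and SFRP4 at most 21 counts.

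**Figure D3:**
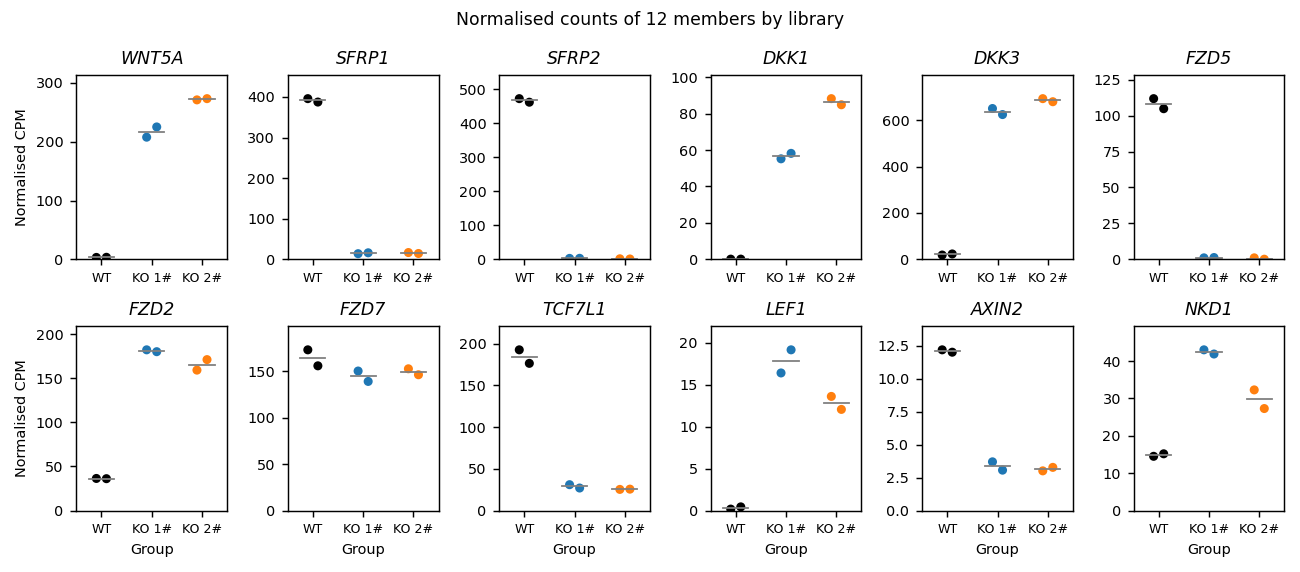
TMM-normalised CPM of 12 genes in each library (points) with the mean of each group (lines), each axis starting at 0. SFRP1, SFRP2, FZD5, TCF7L1 and AXIN2 are high in the WT libraries, WNT5A, DKK1, DKK3, FZD2, LEF1 and NKD1 in the knockout libraries, and FZD7 is at a similar level in all 3 groups.

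The intracellular regulators fell except NKD1. AXIN2, a scaffold of the destruction complex and a widely used readout of beta-catenin activity, had 12.2 and 12 normalised CPM in WT, 3.69 and 3.06 in KO 1#, with 3.01 and 3.27 in KO 2# (log2 fold change -1.89, SE 0.16, adjusted p = 3.89e-09). AXIN1, its constitutive relative, had 73.6 and 65.9 in WT, 32.9 and 28.8 in KO 1#, with 31.0 and 29.1 in KO 2# (-1.20, SE 0.08). NKD2, an inhibitor that binds Dishevelled, had 485 and 437 counts in WT, 16 and 4 in KO 1#, with 2 and 0 in KO 2# (adjusted p = 4.16e-11). It passed the count filter only through WT. Its paralog NKD1, also a known feedback target, rose from 14.5 and 15.2 normalised CPM in WT to 43 and 41.9 in KO 1#, with 32.3 and 27.3 in KO 2# (1.26, SE 0.10, adjusted p = 1.70e-09). AXIN2 and NKD1, 2 of the genes commonly read as feedback targets, thus moved in opposite directions in every knockout library.

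Of the nuclear factors 3 fell and LEF1 rose. TCF7L1, known as a repressor in pluripotent cells (ENSG00000152284, chromosome 2, 85133410 to 85310388), had 193 and 176 normalised CPM in WT, 31.0 and 27.0 in KO 1#, with 25.3 and 25.6 in KO 2# (-2.76, SE 0.07, adjusted p = 1.56e-16). TCF7, which shares 210 exon bases with SKP1 on the opposite strand, had 9.73 and 10.6 in WT, 1.432 and 1.182 in KO 1#, with 2.32 and 1.58 in KO 2# (-2.67, SE 0.20). TCF7L2, the TCF4 protein of adult tissues, fell least, from 64.9 and 67.2 in WT to 40.9 and 39.5 in KO 1#, with 35.5 and 32.2 in KO 2# (-0.84, SE 0.07). LEF1 (ENSG00000138795, chromosome 4, 108047545 to 108168956, minus strand) had 0.172 and 0.437 in WT, 16.4 and 19.2 in KO 1#, with 13.6 and 12.1 in KO 2# (5.64, SE 0.26, adjusted p = 6.48e-13), from 9 and 21 counts in WT. LEF1 passed the count filter only through the knockout libraries, so its test is not read as support beyond these counts.

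The RPKM sum of the family was 52.6 ± 2.27 in WT (SD, n = 2) and 14.7 ± 1.55 in the knockout libraries (SD, n = 4). TCF7L1 made up 79.3% ± 1.53 of it in WT. In the knockout libraries TCF7L1 made up 42.1% ± 2.42, TCF7L2 37.4% ± 0.620 and LEF1 19.4% ± 2.40.

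**Figure D4:**
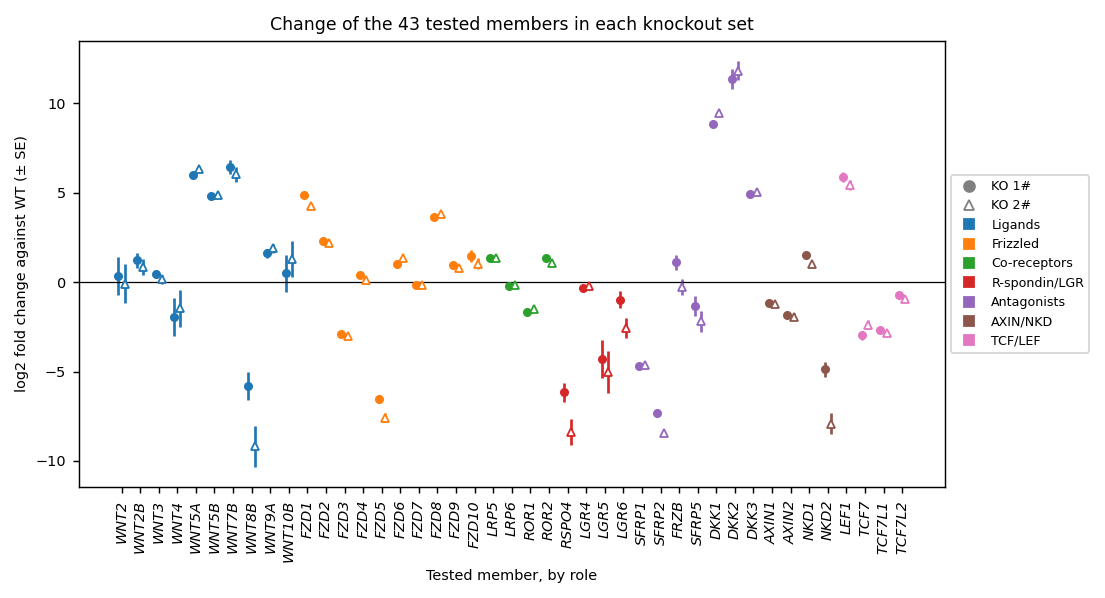
Log2 fold change against WT of the 43 tested genes in KO 1# (filled circles) and KO 2# (open triangles), with standard errors from the fit, coloured by role. The sets lie close together for most genes; the values and errors of genes near 0 counts in a group, such as DKK2, WNT8B, RSPO4, LGR5 and NKD2, depend on the fit and are not bounds.

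The knockout sets were compared directly, without WT. Of the 43 genes 5 differed (2 higher and 3 lower in KO 2#), against 3.86% of all tested genes (1.58% higher and 2.28% lower). FZD1, SFRP2 and NKD1 were lower in KO 2#, by log2 differences of -0.63 (adjusted p = 0.000182), -1.13 (adjusted p = 0.00123) and -0.51 (adjusted p = 0.0101). WNT5A and DKK1 were higher in KO 2#, by 0.33 (adjusted p = 0.00832) and 0.61 (adjusted p = 0.000235). Each of the 5 differed from WT in the same direction in both sets, as did 32.6% (higher) and 35.7% (lower) of all tested genes. Their KO 1# and KO 2# libraries did not overlap, which is nearly fixed for genes picked by the direct test and adds no support. WNT5A was not called when KO 2# replicate 1 (0.34, adjusted p = 0.0847) or KO 2# replicate 2 (0.33, adjusted p = 0.123) was left out, nor NKD1 when KO 2# replicate 2 was (-0.39, adjusted p = 0.203). FZD6, with a difference of 0.34, missed the threshold (adjusted p = 0.0502), but it was called in 8 of the 13 alternatives, among them those without WT replicate 1 (adjusted p = 0.0379), WT replicate 2 (0.0415) or KO 1# replicate 2 (0.016), and its adjusted p ran from 0.00573 to 0.377. Over the alternatives the adjusted p of WNT5A ran from 8.74e-06 to 0.123 and that of NKD1 from 0.000268 to 0.203.

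Other genes of the pathway came from a list of 73 genes in the table, of which 70 were tested. Of these 35 were higher, 22 lower and 13 not called, a share of called genes of 81.4% against the background of 77.3%. That background, 35.8% higher and 41.4% lower, applies also to the counts of each group below. By library totals 22 were higher and 39 lower, and with the 20 most abundant genes left out of those totals 30 and 34. All 4 called genes of WNT secretion and processing were higher. WLS, which carries WNT proteins to the cell surface, rose in normalised CPM from 5.06 ± 0.525 (SD, n = 2, WT) to 138 ± 5.08 (SD, n = 4, knockout), and PORCN, the enzyme that attaches their lipid, from 13.8 ± 0.0863 to 28.8 ± 2.99. RECK and ADGRA2, a pair that forms a WNT7-specific receptor complex, rose from 15.3 ± 0.705 to 55.9 ± 4.13 and from 3.68 ± 0.534 to 511 ± 27.2. NOTUM, the secreted enzyme that removes the lipid, stayed below 1 and was not called (adjusted p = 0.911).

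Of 14 secreted or membrane inhibitors and regulators of receptor turnover, 12 were tested, with 4 higher and 7 lower. SHISA3 had 347 and 330 counts in WT and 0 in the knockout libraries, at least 68.2-fold lower. KREMEN2, a DKK receptor, fell from 7.43 ± 0.847 to 0.0522 ± 0.0636 normalised CPM, and DRAXIN from 36.5 ± 1.74 to 2.76 ± 1.47. RNF43, a ubiquitin ligase that removes frizzled receptors, fell from 4.03 ± 0.841 to 0.547 ± 0.135. Its partner ZNRF3, chosen after its values were seen, fell from 34.3 ± 3.48 to 13.1 ± 1.54. Higher were APCDD1, an inhibitor (5.57 ± 0.168 to 42.7 ± 12.4), TPBG (46.4 ± 0.0218 to 131 ± 3.68), SHISA2 (29.3 ± 1.69 to 58.9 ± 8.56) and NDP, a non-WNT ligand of FZD4 (4 and 0 counts in WT and 25 to 58 in the knockout libraries).

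Of 24 cytoplasmic components 13 were higher, 5 lower and 6 not called, with a median log2 fold change of 0.39. The largest rises were DACT3, a Dishevelled-binding protein (2.21 ± 0.303 to 65.2 ± 6.38 normalised CPM), APC2 (1.49), CXXC5 (1.33) and DVL3 (1.19). DACT2 was lower, with a WT to knockout ratio of 138 (95% exact interval, 37.8 to 1149), as were AMER1 (-1.32), CSNK1E (-0.33) and TNKS (-0.32). CTNNB1, which encodes beta-catenin and was chosen after its values were seen, rose from 315 ± 7.16 to 715 ± 26.3. Its transcript level says nothing of the protein, which is regulated by stability.

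Of 14 nuclear cofactors 6 were higher and 5 lower. The corepressors TLE1 and TLE2 fell from 161 ± 3.07 to 20.2 ± 5.60 and from 6.297 ± 1.099 to 0.169 ± 0.0903 normalised CPM, CTBP2 from 133 ± 2.55 to 58.9 ± 1.38 and BCL9 from 89.6 ± 5.52 to 51.7 ± 3.83. PYGO1, a beta-catenin coactivator, rose from 1.41 ± 0.156 to 18.7 ± 2.76, and HBP1, AES (TLE5) and BCL9L by 1.40, 0.75 and 0.60. Of 16 planar polarity and non-canonical genes 15 were tested, with 8 higher and 5 lower. PTK7, a planar polarity receptor, rose from 195 ± 13.99 to 1489 ± 48.4, PRICKLE2 from 2.49 ± 0.540 to 79.8 ± 12.4, DAAM2 from 5.98 ± 0.765 to 58.9 ± 2.36 and CELSR1 from 48.7 ± 6.28 to 126 ± 7.41. CELSR2, CELSR3, FUZ and VANGL2 fell, by log2 changes of -1.61, -1.34, -1.35 and -0.90, so core polarity genes went both ways. FUZ and HBP1 share 245 and 975 exon bases with AP2A1 and COG5, more counted genes on the opposite strand. Reads of these pairs cannot be told apart there, because the strand setting is not known.

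Genes named as WNT targets in early embryos or in other tissues also divided. Of 31, 23 were tested, with 13 higher and 10 lower, against 35.8% and 41.4% of all tested genes. Highest by fold were WISP1 (8 and 0 counts in WT, 45.4 ± 9.05 normalised CPM in the knockout libraries), TNFRSF19 (0.196 ± 0.223 to 59.3 ± 2.43), TWIST1 (0.165 ± 0.145 to 29.03 ± 0.755) and the protease MMP7, at 0 in WT and at least 72.1-fold higher. Lower were SP8 (13.37 ± 1.304 to 0.0337 ± 0.0675), the primitive streak gene MIXL1 (WT to knockout ratio 330, exact 95% limits 58.7 and 13078), NODAL (10.1 ± 0.645 to 0.0652 ± 0.0612) and LEFTY2 (22.6 ± 2.01 to 0.295 ± 0.197). CCND1 and MYC, chosen after their values were seen, went in opposite directions, from 129 ± 1.78 to 523 ± 49.1 and from 82.7 ± 1.51 to 20.8 ± 1.95. TBXT and SP5, targets known from early embryos, had 0 counts in the knockout libraries and at most 0.155 normalised CPM on average in WT.

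**Figure D5:**
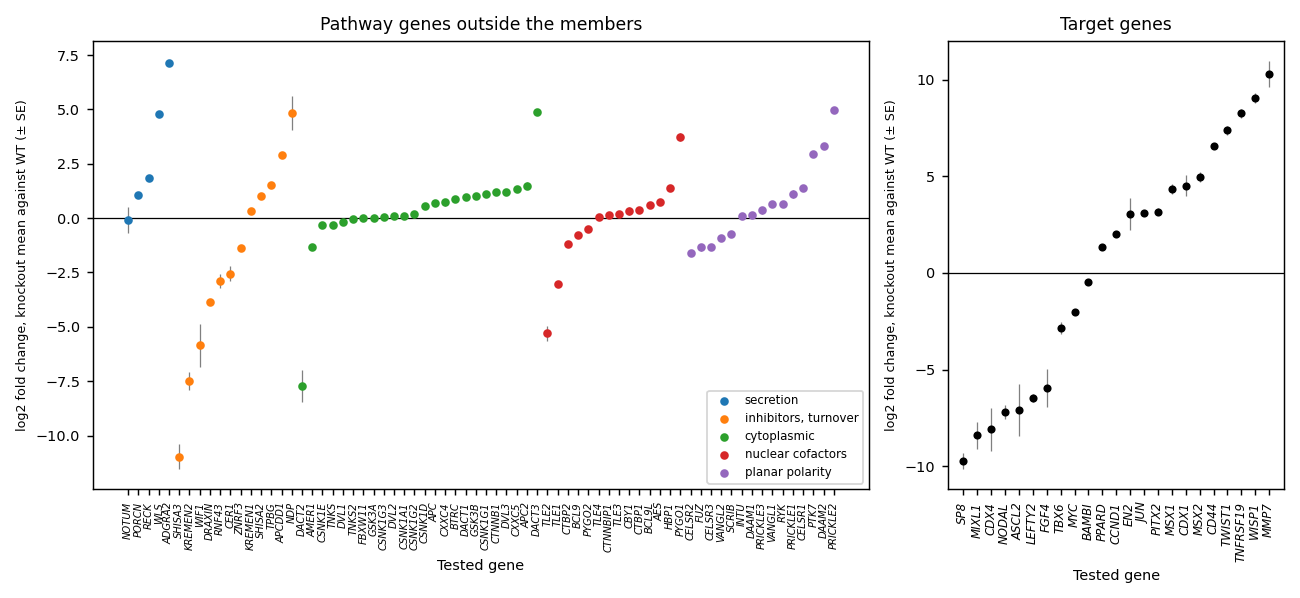
Log2 fold change of the mean of both knockout sets against WT, with standard errors from the fit, for the 70 tested pathway genes (left, coloured by group and ordered by change within it) and the 23 tested target genes (right). Each group has genes on both sides of 0, with NOTUM (-0.08, not called) the only secretion gene below it; values of genes at 0 counts in a group, such as SHISA3 and MMP7, depend on the fit.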

How the data were processed

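RNA sequencing of 6 H1 libraries was analysed. The authors deposited raw counts for each gene and library. The submitters' processing notes list GRCh38 and, without saying what each did, SAMtools 1.3.1, HTSeq 0.6.0, DESeq 1.18.1 and HISAT2 2.0.4. Annotation release and strandedness of counting: not given in the sources used here. TMM scaling gave factors of 1.40 to 1.41 in WT and 0.826 to 0.867 in the knockout libraries. edgeR 4.0.16 (R 4.3.3) fitted 1 quasi-likelihood model of 3 groups with 3 residual degrees of freedom to the 19660 genes that filterByExpr (minimum count 10) retained, with Benjamini-Hochberg adjustment over all of them. Genes near 0 counts in WT or in the knockout libraries passed this filter only through the other libraries. SEs come from the F statistic. RPKM used exon lengths of GENCODE 29. Folds against 0 counts use a floor of 3 counts per library, and against 1 to 3 counts an exact interval, covering counting error only. The genes, lists and naming rule were chosen with earlier results of these data known. Values by library are given for genes called with the same sign in both sets and averaging at least 1 normalised CPM in either condition (at most 8 per role), and for some others by range, count or library. In each group of the other lists the up to 4 largest rises and falls among called genes at that level were named. The symbols TIKI1 and TIKI2 were not matched. Replicates differed by more than counting noise (chi-square per degree of freedom 4.26 to 11.4). Alternatives covered scaling, filter, DESeq2 1.42.0, a replicate block and leaving out each library.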

Additional observations from a re-analysis of the deposited data

Results flagged for a closer look

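The effects of KO 1# and KO 2# against WT differed for 5 genes in the direct test of KO 2# against KO 1#. The log2 differences (KO 2# minus KO 1#) were 0.33 for WNT5A, 0.61 for DKK1, -0.63 for FZD1, -1.13 for SFRP2 and -0.51 for NKD1. The calls of WNT5A and NKD1 depended on single libraries of KO 2#, with the values given in the report. Those of DKK1, FZD1 and SFRP2 passed under each alternative tried, with adjusted p of at most 0.00578, 0.00379 and 0.0468. Whether 1# and 2# differ in anything but the label was not tested.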

How the results depend on the processing

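Of the 43 tested genes 35 had the same call for the mean of both sets under each of the 13 alternatives that gave a value, and 8 (WNT2B, WNT4, FZD4, FZD7, FZD9, FZD10, LRP6 and LGR4) did not. FZD4 reversed by library totals (-0.47, adjusted p = 0.000337) and, with the 20 most abundant genes left out of the totals, to -0.13 (adjusted p = 0.24). These scalings moved the median of all tested genes by -0.73 and -0.39, and the share of called genes that were higher from 46.4% to 26.7% and 34.9%. Among the WNT genes 15 were then higher and 21 lower, or 17 and 20, and among the other pathway genes 22 and 39, or 30 and 34. Between the knockout sets 3 genes were higher in place of 2 (FZD6 was added) and 5 lower in place of 3 (FZD5 and NKD2 were added) with no low-count filter. Leaving out 1 library gave 1 to 3 higher and 2 to 4 lower genes there, 17 to 20 higher and 17 to 22 lower against WT. Deviations of libraries with the same replicate number were nearly uncorrelated between groups (0.011 to 0.0336), which cannot exclude pairing. Over all tested genes a replicate block gave 804 higher and 830 lower in KO 2# against KO 1#, in place of 311 and 448. With that block 19 WNT genes were higher and 20 lower against WT (WNT4 was added). In KO 2# against KO 1# 3 were higher (FZD6 was added) and 5 lower (NKD2 and TCF7L2 were added). The cause of these shifts was not tested. Of the 14 genes left out by the count filter 11 were fitted without it and 3 were called, WNT3A (-6.20, adjusted p = 0.00162) and WNT16 (-4.52, adjusted p = 0.0257) lower and RSPO3 (3.89, adjusted p = 0.0496) higher. These fitted values rest on at most 16 counts in a library and are not bounds.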
